A study of Mus musculus with 2 samples.

Results

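The genes followed here are 7 genes of mature beta cell function: Ucn3, Slc30a8, Slc18a2, Dnajc12, Ppp1r1a, Rgs16 and Ero1b. The classic islet hormones, channels, receptors and transcription factors were left out of this group. They were chosen by name, and every probe set whose annotation gave 1 of these symbols and no other gene was taken. This gave 11 probe sets, of 34945 with a single gene on the array, and 7 genes of 18193. Ero1b and Rgs16 had 3 probe sets each, and each of the other 5 genes had 1.

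The study compared islets of mice with a beta cell-specific ZBTB20 knockout with wildtype islets from littermates, to find the genes that this zinc finger transcription factor controls in beta cells. There was 1 Affymetrix array per genotype, so there are 2 arrays and no replicates. The mice of both groups had a mixed background and an age of 2 to 3 months, and both islet preparations were picked by hand after collagenase and kept in culture overnight. The Cre driver, the deleted part of Zbtb20 and the number of animals behind an array are not given in the sources used here. With 1 array per group no difference can be set against the spread between animals. No p-value or error is therefore given, and every ratio below compares 2 RNA preparations.

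Beta cells reach maturity after birth, when they gain tight glucose control of insulin release. Insulin is folded and oxidised in the endoplasmic reticulum, packed with zinc in secretory granules and released together with other granule contents, and G protein and cAMP signals adjust the release. The 7 genes sit along this route. Ero1b oxidises the protein disulfide isomerases that make insulin's disulfide bonds, Slc30a8 (ZnT8) carries zinc into the granule and Slc18a2 (VMAT2) carries monoamines into vesicles. Ucn3 is a peptide released with insulin that drives somatostatin release from delta cells, and it is widely used as a marker of mouse beta cell maturity. Dnajc12 is a J-domain co-chaperone of aromatic amino acid hydroxylases, Ppp1r1a is an inhibitor of protein phosphatase 1 that is switched on by protein kinase A, and Rgs16 speeds the shut-off of inhibitory G proteins.

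Values are MAS5 signals, the linear intensity of a probe set in the deposited table. Below the 50th percentile of its array, 21.6 for control and 21.7 for knockout-labelled islets, a signal was set to that value, called the floor here, so that noise among dim probe sets gives no ratio. A probe set below the floor on both arrays has no ratio, and one below it on 1 array has a bound, written as "at least". Medians and counts of lists take a bound at its value. Signals of different probe sets cannot be set against each other, since each has its own affinity. Ratios are knockout-labelled over control throughout. The 9 Zbtb20 probe sets ran from -0.87 to 0.54 on the log2 scale, with 5 lower and 4 higher. They do not check the genotype, because the deleted part is not known and other islet cells keep the gene.

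Islet identity of both preparations was plain from hormone signals. All 7 beta cell markers with a probe set were above the floor on both arrays, and 4 of them were lower. Their summed signal was 32749 in control and 29384 in the knockout-labelled array. Ins2 (insulin) had signals of 9194.3 and 7785.8. Alpha cell markers summed to 25787 and 21115 (Gcg 11214.6 and 10291.5), with 5 of 6 measured genes lower and Slc38a5 2.66-fold higher. Delta and PP cell markers summed to 31024 and 26209, with 2 of 5 measured genes lower and 3 higher. The brightest probe sets dominate such sums, as Ttr (14020.9 and 10091.1) did for alpha cells and Ppy (12702.3 and 8094.7) for delta and PP cells. Acinar cell markers summed to 49625 and 25403, with 12 of 13 measured genes lower, and macrophage markers to 939 and 1498, with 10 of 11 measured genes higher. In whole islets fewer cells of a type and less RNA per cell cannot be told apart, and the part of these other cells in the values below was not tested.

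Of the 7 genes, 6 had a probe set above the floor. Taking the brightest probe set of each, 5 had a lower signal in knockout-labelled islets and 1, Rgs16, had a higher one. The order from lowest to highest log2 ratio was Ucn3 (-0.54), Ero1b (-0.45), Ppp1r1a (-0.35), Dnajc12 (-0.27), Slc30a8 (-0.05) and Rgs16 (0.71). Most neighbours in this order differed by less than 0.21, the median SD of log2 ratios among probe sets of 1 gene over 4719 genes. Only the steps from Dnajc12 to Slc30a8 and from Slc30a8 to Rgs16 were wider. The median over the 6 genes was -0.31, beside 0 over all 11857 genes measured, of which 49.8% were below 0. A choice of 6 genes by hand cannot show whether the group as such was shifted.

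No member probe set reached a 2-fold ratio. Among all 21257 single-gene probe sets above the floor on at least 1 array, 1.88% had a signal 2-fold higher or more and 1.29% one 2-fold lower or more, so a count of 0 among 10 is close to these shares. At a limit of 1.5-fold, 2 of the 10 were higher, both of them Rgs16, and none was lower. The shares over all probe sets at that limit were 7.48% higher and 6.35% lower. The 2 Rgs16 probe sets target transcripts of 1 gene and count as 1 observation.

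**Figure D1:**
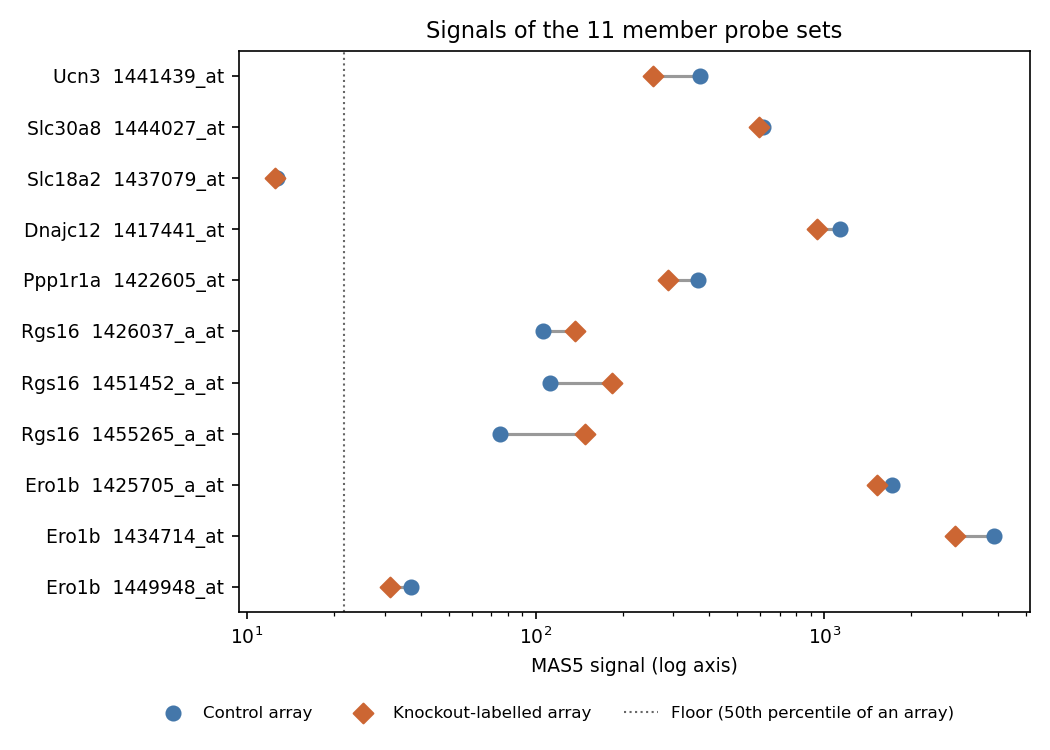
Signal of each of the 11 member probe sets (log axis, MAS5 signal) on the control array (circles) and the knockout-labelled array (diamonds), with the floor as a dotted line. The 3 Rgs16 probe sets have the diamond to the right of the circle, the Slc18a2 probe set lies left of the floor on both arrays, and the other 7 have the diamond to the left by 1.03-fold to 1.45-fold.

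The stretches upstream of the transcript start are shown for the genes at both ends of that order, Ucn3 and Ero1b with the lowest ratios and Rgs16 with the highest. RefSeq's promoter table for GRCm38.p6 held 4 of the 7 genes, the fourth being Slc18a2. The table's window is the 250 bases before the start it lists, read here 5′ to 3′ on the gene's own strand. For Ero1b that start lies 65 bases inside the gene as RefSeq bounds it, so the line shows the 185 bases that lie outside the gene, while the counts below refer to the whole window. Capitals mark matches on either strand to an E-box (CANNTG, the core bound by NEUROD1 and other basic helix-loop-helix factors) or a CCAAT box (CCAAT, read as ATTGG on the other strand).
Ucn3 chr13:3945350-3945599, minus strand: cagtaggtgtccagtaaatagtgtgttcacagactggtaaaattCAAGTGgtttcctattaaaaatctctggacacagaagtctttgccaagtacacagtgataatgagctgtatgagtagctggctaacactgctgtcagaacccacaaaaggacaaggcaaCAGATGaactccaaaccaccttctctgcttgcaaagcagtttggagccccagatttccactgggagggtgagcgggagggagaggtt
Ero1b chr13:12565633-12565817, plus strand: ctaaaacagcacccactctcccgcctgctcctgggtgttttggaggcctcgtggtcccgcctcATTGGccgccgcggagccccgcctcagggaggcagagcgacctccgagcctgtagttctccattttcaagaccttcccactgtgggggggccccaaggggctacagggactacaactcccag
Rgs16 chr1:153740103-153740352, plus strand: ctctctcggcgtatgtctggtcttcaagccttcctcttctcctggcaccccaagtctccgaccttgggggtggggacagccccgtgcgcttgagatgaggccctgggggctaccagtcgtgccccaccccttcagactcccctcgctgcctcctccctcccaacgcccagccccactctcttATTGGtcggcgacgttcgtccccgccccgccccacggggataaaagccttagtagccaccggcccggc

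The Ucn3 window held 2 E-boxes and no CCAAT box, whereas the Ero1b and Rgs16 windows each held 1 CCAAT box and no E-box. The Rgs16 CCAAT box lay 68 to 64 bases before the start, and that of Ero1b 187 to 183 bases before the start that the table lists. Of all 32851 windows in the table, 66.2% held an E-box and 33.8% a CCAAT box. Neither the cAMP response element TGACGTCA (in 1.55% of windows), its half-site TGACG (17.8%) nor the TATA box TATAAA (12.4%) was found in the 3 windows. G and C made up 46.4% of the Ucn3 window, 64.4% of the Ero1b window and 66.4% of the Rgs16 window, beside a median of 52.4%. The 2 genes with a CCAAT box, Ero1b and Rgs16, had ratios of opposite sign. A match describes letters and is no evidence of a bound factor.

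Ucn3 lies on chromosome 13 at 3940688 to 3945349 (GRCm38.p6). Its probe set 1441439_at had a signal of 371.1 in control islets and 255.4 in knockout-labelled ones, 1.45-fold lower. This was the lowest log2 ratio of the 7 genes (-0.54). Probe sets with a mean signal between 200 and 500 had a central 95% from -0.62 to 0.72, so Ucn3 lay inside that spread, near its lower edge. No other probe set was there to compare it with.

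The genes around Ucn3 signalling were mostly weak. The other peptides of the family, Crh, Ucn and Ucn2, were under the floor on both arrays, with signals of at most 18.4. The probe sets of Crhr2, the receptor that Ucn3 prefers, were also under it, at 1.4 and 1.1 in control and 13.5 and 9.2 in knockout-labelled islets. Crhr1, the receptor on beta cells, was above the floor on the knockout-labelled array alone (18.8 and 28.7, at least 1.33-fold higher), and its other probe set was under it on both. Downstream of Ucn3, somatostatin (Sst) had near-equal signals of 9661.1 and 9769.5, and the somatostatin receptor gene Sstr3 had 321.9 and 323.6 in its brighter probe set. The 4 genes of this list above the floor on both arrays were within 1.5-fold, and the 5 measured genes besides Ucn3 had a median log2 ratio of 0.016.

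Ero1b, at 12565818 to 12609533 on chromosome 13, was lower in all 3 of its probe sets. Probe set 1434714_at had 3862.5 in control islets and 2835.4 in knockout-labelled ones, 1.36-fold lower. Probe set 1425705_a_at, whose suffix marks a design that matches several transcripts of the gene, had 1713.7 and 1520.1, 1.13-fold lower. The weak probe set 1449948_at had 37.1 and 31.4, 1.18-fold lower. The log2 ratios thus ran from -0.45 to -0.17 (SD 0.14 among probe sets, which share the RNA and the array). Of 1173 genes with 3 probe sets above the floor on both arrays, 19.4% had all 3 below 0, so agreement in sign alone was common. Above a mean signal of 2000 the ratios of all probe sets leaned low, with a median of -0.07 and a central 95% from -0.91 to 0.27, and the brightest Ero1b probe set lay within it.

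The partners of Ero1b in oxidative folding showed no common shift. Ero1a, the more widely expressed paralog, was lower in each of 3 probe sets, from 2194 to 1478.5 in the brightest (1.48-fold) and by 1.54-fold and 1.59-fold in the others. The isomerases that these oxidases act on differed less. P4hb, the archetypal protein disulfide isomerase, had 5564.2 and 5109.9 and Pdia3 had 5073.6 and 4568.8. Qsox1, a sulfhydryl oxidase, was 1.68-fold higher in its brightest probe set (194.2 and 327.2) and 1.25-fold higher in its other measured one. Pdia2, known as the disulfide isomerase of exocrine pancreas, was 2.44-fold lower (172.7 and 70.8), and acinar markers were lower on the same array, with 8 of 13 at least 2-fold lower. The 24 genes besides Ero1b had a median log2 ratio of 0.018, with 14 above 0 and 10 below.

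Slc30a8, on chromosome 15 at 52295553 to 52335798, differed least. Its probe set 1444027_at had signals of 612.7 in control islets and 592.5 in knockout-labelled ones, 1.03-fold lower. Slc30a5 and Slc30a7, which carry zinc into the secretory pathway, were also within 1.5-fold. Slc30a5 had 829.1 and 798.1, 1.04-fold lower. Slc30a7 was 1.07-fold lower in its brighter probe set (524 and 489.9) and 1.21-fold lower in its other one (397.8 and 327.8). Slc30a1, the zinc exporter of the plasma membrane, disagreed between its probe sets, 1.38-fold higher in the brighter (106.8 and 147.9) and 1.29-fold lower in the weaker (33.8 and 26.3).

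Among genes of the zinc list above the floor on both arrays, the 3 with the ratios farthest from 0 bind or sense zinc and do not carry it. The metallothionein Mt2 had 2949.3 in control islets and 1694.4 in knockout-labelled ones, 1.74-fold lower. Mt1 had 7118.3 and 4968, 1.43-fold lower, and its weaker probe set was 1.57-fold lower. Mtf1, the zinc-sensing factor that drives metallothionein genes, had 109.2 and 76.5. Over the 20 measured genes besides Slc30a8 the median log2 ratio was -0.08, with 7 above 0 and 13 below. By brightest probe set, Mt2 alone had a measured ratio of 1.5-fold or more. The zinc importer gene Slc39a5 was above the floor in control only (31.3 and 12.5, at least 1.44-fold lower). Both metallothioneins are expressed widely, acinar cells included, so their signals cannot be assigned to beta cells.

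Slc18a2, on chromosome 19 at 59260878 to 59296012, gave no usable value. Its only probe set, 1437079_at, had 12.7 and 12.5, at the 37.9th percentile of the control array and the 37.6th of the other, below the floor. Such a signal does not show that the transporter is absent from islets, since a probe set can fail to detect its transcript. Of the other vesicular transporters, Slc18a1 (VMAT1) was above the floor in its brightest probe set, at 103.1 in control islets and 145.1 in knockout-labelled ones, 1.41-fold higher.

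Of the 28 genes of the monoamine list with a probe set, 15 were measured, and these pointed both ways. Th, which makes the dopamine precursor, had 204.2 in control islets and 133.5 in knockout-labelled ones, 1.53-fold lower. Ddc, the next enzyme, which also acts on the serotonin precursor, had 1750.2 and 2558.1, 1.46-fold higher, with its weaker probe set 1.15-fold higher. Tph1, the serotonin-synthesising enzyme of islets, had 274.3 and 255. The degrading enzymes Maoa and Maob had 92.5 and 93.6 and 952.5 and 1148.9 in their brightest probe sets. The weaker Maoa probe set was above the floor in control only (27.9 and 12, at least 1.29-fold lower). Gch1 and Qdpr, which make and recycle the cofactor of the hydroxylases, were within 1.11-fold at bright signals. Of 15 measured genes 8 were above 0 and 7 below, and the median log2 ratio was 0.017.

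Dnajc12, on chromosome 10 at 63382443 to 63408840, had a signal of 1134.3 in control islets and 942.5 in knockout-labelled ones in probe set 1417441_at, 1.20-fold lower. Probe sets with mean signals from 1000 to 2000 had a central 95% from -0.68 to 0.42, and Dnajc12 at -0.27 lay well inside it. Th and Tph1 encode aromatic amino acid hydroxylases, the class of protein that Dnajc12 assists. Th had a log2 ratio of -0.61 (1.53-fold lower) and Tph1 one of -0.11 (1.08-fold lower). The same Th probe set also stands among the markers of Schwann cells and neurons, so its value cannot be assigned to beta cells. Whether these ratios are tied to that of Dnajc12 was not tested. The Hsp70 partner of Dnajc12, Hspa8, had near-equal signals of 6165.2 and 6174.6, and Dnajc3, an endoplasmic reticulum co-chaperone, had 2003.4 and 1776.9. The 24 measured genes of this list besides Dnajc12 had a median log2 ratio of -0.018. Dnajc16 stood farthest from 0 among those above the floor on both arrays, 1.85-fold higher in one weak probe set (33.5 and 62.1) and 1.30-fold higher in the other (34.8 and 45.2).

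Ppp1r1a, on chromosome 15 at 103530279 to 103538027, had 366.1 in control islets and 286.4 in knockout-labelled ones in probe set 1422605_at, 1.28-fold lower. It lay inside the central 95% of probe sets of its signal (-0.62 to 0.72). The catalytic subunits it can inhibit were near-equal, Ppp1ca at 1693.7 and 1711.5, Ppp1cb at 1239.4 and 1185.6 and Ppp1cc at 3122 and 3378.8. Its brain paralog Ppp1r1b was under the floor (3.7 and 6.8). Ppp1r12b, a myosin phosphatase subunit (42.6 and 27.5), and Ppp1r3c, a glycogen-targeting subunit (45.1 and 32.8), had lower ratios than Ppp1r1a, both at weak signals. Over the 20 measured genes besides Ppp1r1a the median log2 ratio was 0.013.

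**Figure D2:**
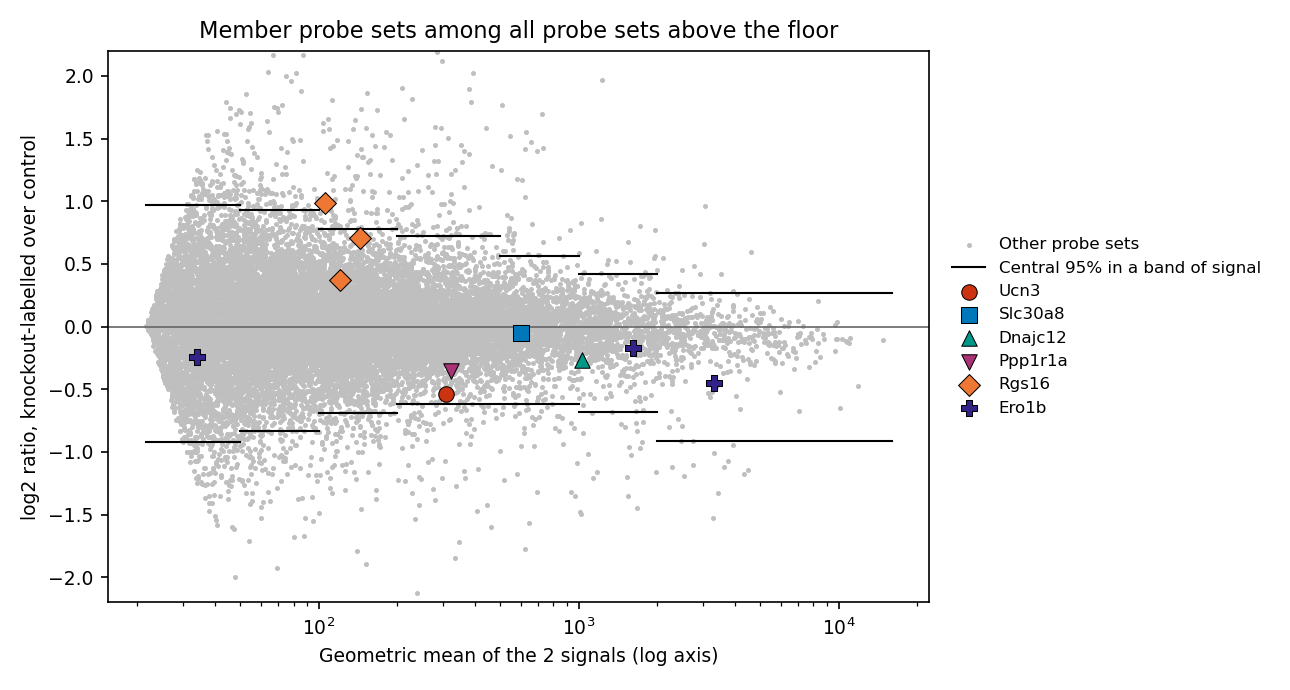
Log2 ratio of knockout-labelled over control against the geometric mean signal (log axis) for the 18275 single-gene probe sets above the floor on both arrays (grey), with the 10 measured member probe sets in colour and black lines at the central 95% within bands of signal. 24 grey probe sets beyond 2.2 in either direction are not drawn. One Rgs16 probe set lies above its upper line (0.99 against 0.78), and the other 9 member probe sets lie between the lines.

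Rgs16, on chromosome 1 at 153740353 to 153745468, was the 1 member with higher signals in knockout-labelled islets. Probe set 1455265_a_at had 75.1 in control islets and 148.7 in knockout-labelled ones, 1.98-fold higher. Probe set 1451452_a_at had 112.4 and 183.5, 1.63-fold higher. Probe set 1426037_a_at had 106.2 and 137.2, 1.29-fold higher. All 3 thus pointed the same way, by differing amounts. The log2 ratios averaged 0.69 with an SD of 0.31 among probe sets. Of the 1173 genes with 3 probe sets above the floor on both arrays, 20.2% had all 3 above 0. In 24 of them (2.05%), Rgs16 included, all 3 were at least as high as the lowest Rgs16 ratio of 0.37, a comparison chosen after that value was seen. The ratio closest to 2-fold, that of 1455265_a_at, came from the weakest of the 3 control signals, and for mean signals of 100 to 200 the central 95% ran from -0.69 to 0.78.

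RGS genes are expressed in many cell types, and the family pointed both ways. Of 12 measured members 6 were above 0 and 6 below, and 3 were at least 1.5-fold higher, Rgs10 (52.2 in control islets and 94.8 in knockout-labelled ones), Rgs1 (28.9 and 48.9) and Rgs16. Rgs1 and Rgs10 are best known from leukocytes, and 10 of 11 measured macrophage markers were higher on the same array. The farthest from 0 with both signals above the floor were C1qb (49.1 and 113.9), Tyrobp (45.1 and 94.2) and Mrc1 (24.5 and 130.8). Csf1r differed less (139.7 and 159.9), and Lyz2 was not higher (64 and 63.6). Of the 13 macrophage markers, Itgam and Aif1 were below the floor on both arrays. The part of macrophages in the Rgs1, Rgs10 and Rgs16 signals was not tested. The brightest family members, Rgs4 (2570.3 and 2817.5) and Rgs2 (1014.9 and 855.1), were 1.10-fold higher and 1.19-fold lower in their brightest probe sets. Further Rgs4 probe sets were 1.20-fold and 1.23-fold higher. Those of Rgs2 were 1.39-fold lower, 1.11-fold lower and, at a weak signal (3.1 and 28.8), at least 1.33-fold higher. Rgs5, the pericyte gene of the family, had 197.1 and 245.6 in its brightest of 4 probe sets and disagreed in sign among them.

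**Figure D3:**
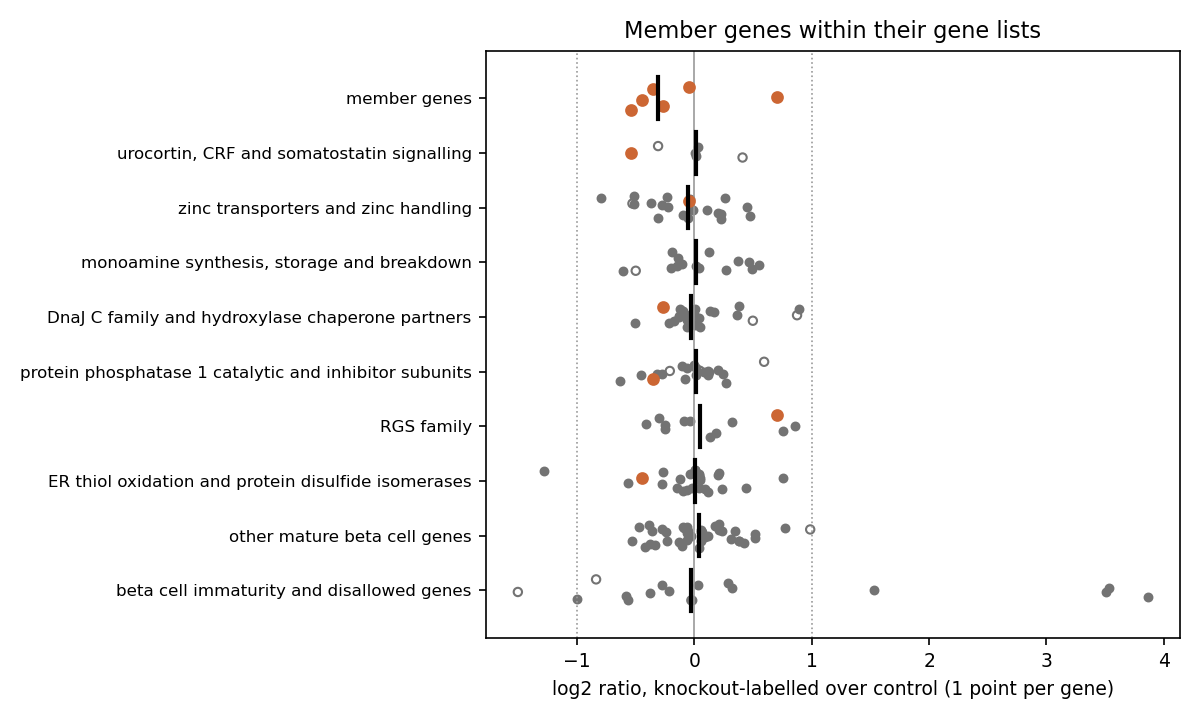
Log2 ratio of knockout-labelled over control for each measured gene (brightest probe set) in the 10 gene lists, with the 7-gene group on top, its members in orange, open circles for genes above the floor on 1 array only, black bars at list medians and dotted lines at 2-fold. The list medians lie between -0.31 (members) and 0.05 (RGS family), and points beyond 2-fold occur in the folding list (Pdia2) and in the list of immaturity and disallowed genes.

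The rest of the mature beta cell programme straddled 0. A list of 48 other mature beta cell genes, taken from hormones, granule proteins, glucose sensing, channels, receptors and transcription factors, had 39 measured genes with a median log2 ratio of 0.04, of which 20 were above 0 and 19 below. The 38 above the floor on both arrays were all within 2-fold. Robo2, an axon guidance receptor gene, was above it in knockout-labelled islets only (17.3 and 42.8, at least 1.98-fold higher). Pcsk1, the convertase that cuts proinsulin, had 1505.4 in control islets and 2563.2 in knockout-labelled ones (1.70-fold higher), and the glucose transporter gene Slc2a2 had 276.4 and 396.4 (1.43-fold higher). Cacna1d, a calcium channel gene, had 136.9 and 94.7 (1.45-fold lower), as large a ratio in that direction as that of Ucn3. The brightest of the list were Iapp (amylin, 1.08-fold lower), Ttr (1.39-fold lower) and Chga (1.03-fold higher), and the weakest of 4 Iapp probe sets was 1.81-fold higher. Ttr also stands among the alpha cell markers with the same probe set, so its value cannot be assigned to beta cells. Whether the members' median of -0.31 differs from this list's was not tested, since 1 array per group allows no test.

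A few genes of a list of immaturity and disallowed genes gave far larger ratios than any member, while most of the list did not. In this list, chosen with earlier results of these data known, 4 of 17 measured genes were higher by 2-fold or more. As many as 2 were lower by as much, and the median was -0.03. Over all single-gene probe sets these shares were 1.88% higher and 1.29% lower. The 2 lower genes were Hk2 (56.1 in control islets and 28 in knockout-labelled ones, 2.00-fold) and Dcn, above the floor in control only (61.6 and 19.8, at least 2.84-fold). The retinaldehyde dehydrogenase gene Aldh1a3 had a log2 ratio of 3.87 (22.2 in control islets and 324.1 in knockout-labelled ones). Cck had one of 3.54 (23.5 and 272.6). Both control signals lay just above the floor of 21.6, so the size of these 2 ratios is uncertain. Npy had a log2 ratio of 3.51 (118 and 1339.9), and the imprinted gene Nnat was 2.89-fold higher (110.8 and 319.8). Ldha, a disallowed lactate dehydrogenase gene, went the other way, at 844.9 and 571.1. All 6 measured genes of the mature group, for comparison, were within 2-fold on the same arrays.

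**Figure D4:**
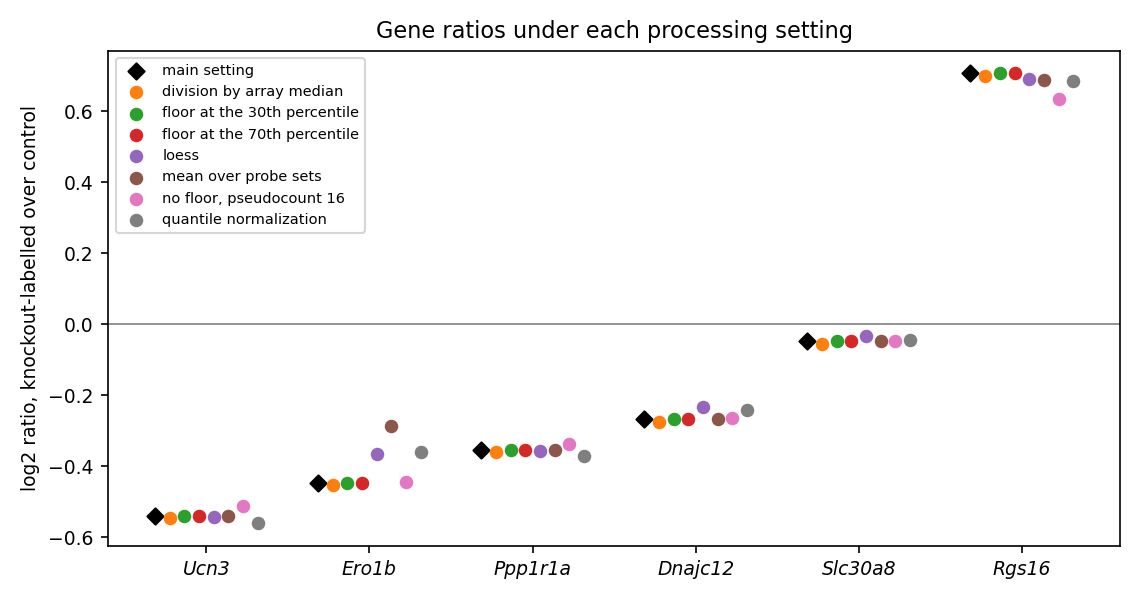
Log2 ratio of knockout-labelled over control for the 6 measured member genes under the main setting (black diamonds) and 7 alternatives (circles), which were floors at the 30th percentile and at the 70th, 3 scalings, a pseudocount of 16 and the mean over probe sets. Every gene keeps its sign, and Ero1b spans the widest range, from -0.45 to -0.29.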

How the data were processed

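The deposited table held linear MAS5 signal intensities of 45037 probe sets on 2 arrays, made by the authors with MAS5 per the submitters' processing notes. The version, scaling target, background step and detection calls are not given in the sources used here. Array medians were 21.6 and 21.7, and trimmed means (2% off either tail) were 99.3 for both, so signals were used as deposited.

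Genes came from the platform annotation, which named 1 gene for 34945 probe sets, several for 932 and none for 9160. All 7 members matched RefSeq by Entrez identifier with the same symbol. Signals under the 50th percentile of an array were raised to it. A gene's brightest probe set above the floor stood for it. With 1 array per group nothing was tested and the number of arrays limits the precision.

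The members and gene lists were chosen with earlier results of these data known. Other genes were named by a rule: Zbtb20, direct partners of the members, and from each list the 3 brightest and the 3 farthest from 0 of those whose signal exceeded the floor in control and knockout-labelled islets alike. Of these the text names most, and Sstr2, Slc39a7, Dnajc15, Dnajc27 and Rgs17 stand in the counts only. Robo2, Slc39a5, Slc30a1, Slc18a1, Crh, Ucn, Rgs5, Hk2, Dcn, the weaker probe sets of partners and the cell markers shown were added after values were seen. Ins1, Mafa and other symbols without a single-gene probe set were not analysed here. Alternatives were a floor at the 30th percentile or at the 70th, a pseudocount of 16 without a floor, division by the median, quantile and loess scaling, the mean over probe sets, and limits of 1.5-fold and 3-fold. The ratio code was checked on simulated data. Python 3.11.15, pandas 2.3.3 and statsmodels 0.14.6 were used.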

Additional observations from a re-analysis of the deposited data

How the results depend on the processing

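All 6 measured member genes kept their direction under 7 alternatives each, and none moved by more than the SD of 0.21 among probe sets of 1 gene. Ucn3 ranged from -0.56 to -0.51, Ero1b from -0.45 to -0.29 (the last as the mean over its probe sets), Ppp1r1a from -0.37 to -0.34, Dnajc12 from -0.27 to -0.23, Slc30a8 from -0.06 to -0.03 and Rgs16 from 0.64 to 0.71. No member probe set reached 2-fold under any floor or scaling, and the nearest, Rgs16 1455265_a_at, ranged from 1.81-fold with the pseudocount to 1.98-fold. At a limit of 1.5-fold 2 member probe sets were higher. Slc18a2 gained a ratio with the floor at the 30th percentile (-0.02) or with the pseudocount (-0.01), at a signal that is weak on both arrays.

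Over all single-gene probe sets the 400 at least 2-fold higher and 274 lower became 1387 higher and 1308 lower when the floor lay at the 30th percentile, and 138 higher and 90 lower when it lay at the 70th. A 1.5-fold limit gave 1589 higher and 1350 lower, and a 3-fold limit 93 higher and 24 lower. More weak probe sets enter with a lower floor. The 3 scalings put the median of all probe sets between -0.0037 and 0.0073 on the log2 scale. No paired analysis was possible because each group has a single array. Weak signals near the floor, as of Slc18a2 and 1449948_at of Ero1b, limit what can be said of them.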
